A study of Mus musculus with 14 samples.

Results

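The comparison described here set sorted hippocampal cells that carried a DREADD against sorted cells that carried GFP alone, in animals without seizures. It used the 4 DREADD Sham libraries and the 3 CAG-GFP Sham libraries, chosen by the group named in their titles, which make 7 of the 14 libraries of the series. The other 7 libraries came from animals given pilocarpine, which induces seizures, and carried either GFP alone (CAG-GFP Pilo) or the DREADD (DREADD Pilo).

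All animals were C57BL/6 mice labelled wild type and sampled at day 14. Every group received clozapine-N-oxide (CNO), the GFP-only controls included, so CNO itself was common to both arms. From each sample 800 to 1000 live GFP-positive cells, which the submitters call adult-born granule cells, were lysed directly for SMART-Seq v4 cDNA. The labels name the CAG promoter for GFP and do not say which promoter or vector drove the DREADD. The names of the seizure libraries call it hM4Di, and the sham libraries are named only as DREADD. A single seizure protocol is attached to all samples, so what the sham animals were injected with is not given. Nothing states that the libraries of a group came from separate animals, so the p-values measure only the spread between libraries.

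The receptor hM4Di is a muscarinic receptor altered to answer CNO and not acetylcholine. It couples to Gi proteins, whose alpha subunits restrain adenylyl cyclase and whose beta-gamma subunits open GIRK potassium channels, and so makes a neuron less likely to fire. Adult-born granule cells arise from radial glia-like stem cells of the dentate gyrus, which share many genes with astrocytes, and pass through a neuroblast stage marked by Dcx and Neurod1 before they express granule cell genes such as Prox1 and Calb1. Oligodendrocytes, which make myelin, and their precursors form a separate glial lineage.

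Total counts per library ran from 27965232 to 28432365 in CAG-GFP Sham and from 15261512 to 33210468 in DREADD Sham, with 14512 to 16587 genes detected. The DREADD Sham libraries fell into 2 kinds. Replicates 1 and 2 have library names in capitals, like all 3 controls, and 0.2% and 0.167% of their counts lay in pseudogenes, against 0.117% to 0.139% in the controls. Replicates 3 and 4 have names in mixed case, 8.12% of their counts lay in pseudogenes, and ribosomal protein genes made up 0.147% and 0.133% of their counts against 1.42% to 2.35% in the other 5 libraries. On log2 CPM across genes, replicates 1 and 2 correlated at 0.796, replicates 3 and 4 at 0.694, and pairs across the 2 kinds at 0.501 to 0.532, while the controls correlated at 0.863 to 0.868. Pairs of a control and a DREADD Sham library correlated at 0.512 to 0.768. The 3 controls and DREADD Sham 1 and 2 are called the capitals set here, and results are given within that set where it changes what is seen. What the name style stands for is not stated in the labels. Mitochondrial genes held 11.6% to 12.7% of counts in the controls and 2.21% to 4.90% in all 4 DREADD Sham libraries.

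**Figure D1:**
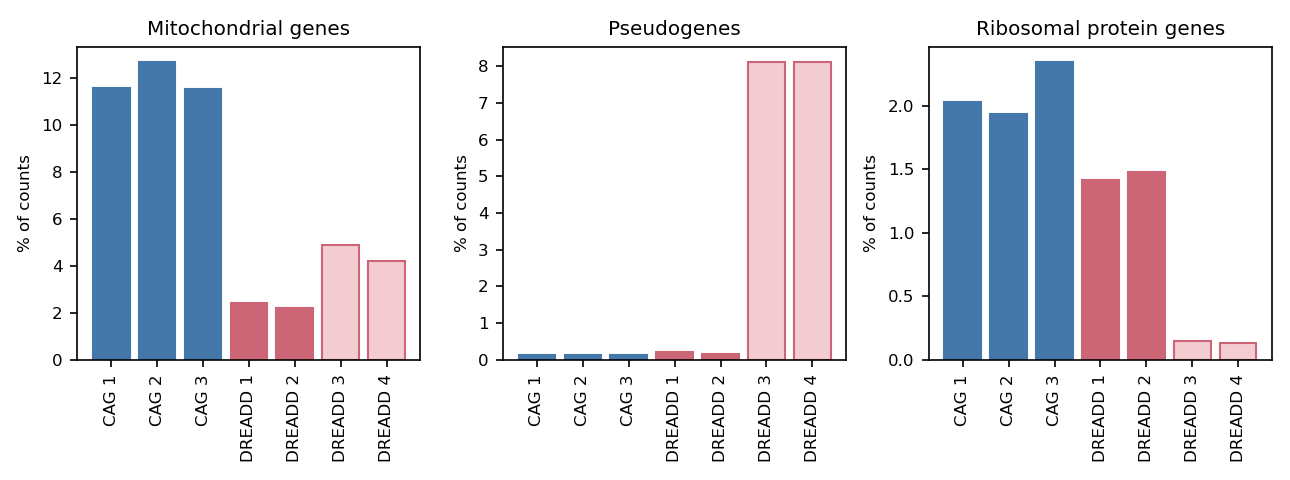
Share of each library's counts (y axes, percent, starting at 0) in mitochondrial genes, pseudogenes and ribosomal protein genes for the 3 CAG-GFP Sham libraries (blue) and the 4 DREADD Sham libraries (red; pale bars are replicates 3 and 4). The mitochondrial share separates the groups, with 11.6% to 12.7% against 2.21% to 4.90%, while the other panels separate DREADD Sham 3 and 4 from the other 5 libraries.

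Granule cell identity was first checked in the labelled adult-born granule cells. C1ql2, a synapse organiser of granule cells, had no count in any control library and stood at 73.6, 45.6, 15.0 and 5.75 CPM in DREADD Sham. Dcx, the microtubule protein of migrating neuroblasts, stood at 0, 6.57 and 1.68 CPM in the controls and at 21.6, 30.8, 271 and 137 CPM in DREADD Sham. Prox1, the transcription factor of granule cells, stood at 12.7, 5.63 and 14.6 CPM in the controls and at 30.9, 79.3, 198 and 85.6 CPM in DREADD Sham. C1ql2 was at 0 and Dcx and Prox1 were low in the control libraries, and the groups did not overlap for these 3 genes. Calb1, another granule cell gene, was at 51.0 to 67.8 CPM in the controls and overlapped between the groups, and the sum of the mature granule cell list was higher in the controls than in DREADD Sham 3 and 4. None of the 3 passed the gene-wide test, with edgeR adjusted p of 0.0643 for C1ql2, 0.261 for Dcx and 0.400 for Prox1. The genes named in the text by the naming rule are stated with the processing, and C1ql2, Dcx and other list members reported for values within the capitals set were chosen after their values were seen.

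The summed level of 14 astrocyte markers was 29030, 29080 and 30510 CPM in CAG-GFP Sham and 2200, 3075, 5221 and 3007 CPM in DREADD Sham. The summed level of 13 oligodendrocyte markers ran the opposite way, at 624, 622 and 721 CPM in the controls and 19420, 21700, 41700 and 30240 CPM in DREADD Sham. Neither pair of sums overlapped. In sorted bulk samples, fewer cells of a type and less RNA per cell cannot be told apart, so these sums describe the RNA of each library and not its number of cells.

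**Figure D2:**
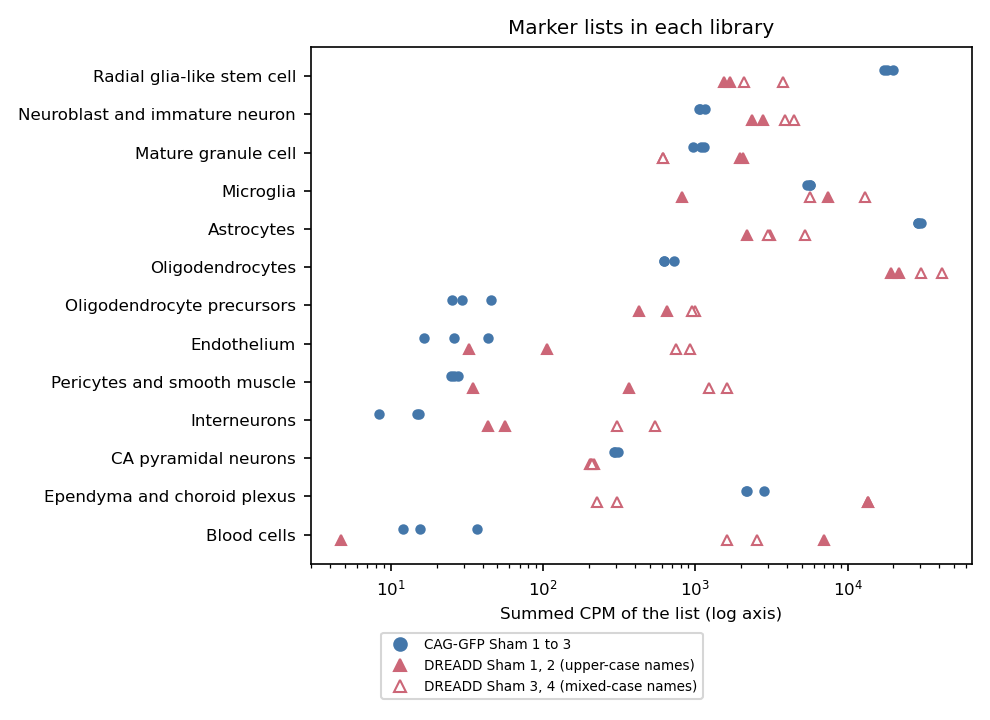
Summed CPM of each marker list (x axis, log scale) in every library of the 2 groups. Blue circles are CAG-GFP Sham, filled red triangles DREADD Sham 1 and 2 and open red triangles DREADD Sham 3 and 4. Radial glia-like and astrocyte sums lie lower and oligodendrocyte and precursor sums higher in all 4 DREADD Sham libraries, while endothelial, pericyte, interneuron, ependymal and blood sums differ among the DREADD Sham libraries themselves.

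Between DREADD Sham and CAG-GFP Sham, 56 of 18676 tested genes passed edgeR's quasi-likelihood test at a Benjamini-Hochberg adjusted p under 0.05, a background of 0.3% of genes. Of these, 46 were lower in DREADD Sham (0.246%) and 10 were higher (0.0535%), and 52 were protein-coding. The fallen genes had high counts in the controls, with group means of 261 to 92990 CPM, and together held 16.6%, 16.7% and 18.1% of the counts of the CAG-GFP Sham libraries and 2.13%, 1.83%, 1.29% and 1.43% of those of DREADD Sham. Their log2 fold changes ran from -5.49 to -2.43 with a median of -3.65, beside a median of 0.53 over all tested genes. The groups did not overlap for any of the 56 genes, which was so for 9.01% of all genes with DREADD Sham above and 12.7% with DREADD Sham below. The unadjusted p was under 0.05 for 3474 genes, and the log2 difference was positive for 11402 of the 18676. Scaling by library totals without TMM factors moved the median of all genes by 0.78 to 1.30 and left 5 higher genes (0.0268%) and 8 lower genes (0.0428%), 0.0696% in all. DESeq2 called 2003 higher genes (10.7%) and 652 lower genes (3.49%), 14.2% of the genes, and limma voom 119 higher (0.637%) and 739 lower (3.96%), 4.59% of them. All 56 genes kept their direction under every alternative run.

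**Figure D3:**
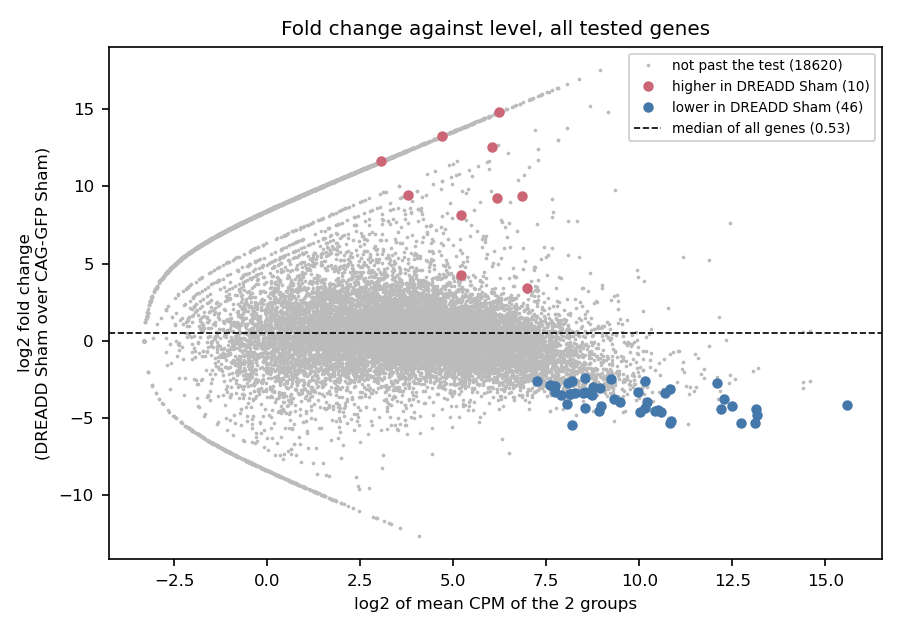
Log2 fold change of DREADD Sham over CAG-GFP Sham (y axis) against the log2 of the mean CPM of the 2 groups (x axis) for the 18676 tested genes, each a point. The 46 genes lower in DREADD Sham (blue) lie at the abundant end and the 10 higher genes (red) at middle levels, several of them on the upper edge formed by genes with no count in the controls. The dashed line is the median of all genes, 0.53.

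The largest falls included the metallothioneins, small cysteine-rich proteins that bind zinc and copper. The start regions of both genes are shown because the genes lie side by side on chromosome 8 and fell together. They are 300 bases each from RefSeq (GRCm38.p6, plus strand), from 250 bases before to 50 after the start, at chr8:94178839-94179138 for Mt1 and chr8:94172368-94172667 for Mt2. Capitals mark matches on either strand to TGCACNC or TGCGCNC, the core letters of the metal response element.
Mt1: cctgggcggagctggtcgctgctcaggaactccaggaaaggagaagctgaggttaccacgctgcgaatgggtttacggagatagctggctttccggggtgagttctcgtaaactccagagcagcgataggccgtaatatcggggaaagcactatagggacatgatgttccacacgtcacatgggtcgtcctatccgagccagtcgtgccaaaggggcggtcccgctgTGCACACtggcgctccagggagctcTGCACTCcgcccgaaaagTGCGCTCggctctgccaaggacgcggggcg
Mt2: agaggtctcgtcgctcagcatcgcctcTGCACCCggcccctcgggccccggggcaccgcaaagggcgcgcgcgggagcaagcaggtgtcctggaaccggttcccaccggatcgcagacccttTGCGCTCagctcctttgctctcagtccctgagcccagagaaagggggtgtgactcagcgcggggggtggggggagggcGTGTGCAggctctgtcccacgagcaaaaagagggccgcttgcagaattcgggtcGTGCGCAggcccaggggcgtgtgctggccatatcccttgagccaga
The Mt1 window held 3 matches and the Mt2 window 4. At least 3 matches were found in 2.27% of 27025 gene starts of this length, and at least 1 in 28.2%. Of the 38 fallen genes with such a sequence, 17 held at least 1 match (44.7%), and of 5 risen genes 4 did. The cAMP response element TGACGTCA, searched on both strands, was in 2.03% of all windows and in 0 of the 43 windows of genes past the test. A match describes letters in the window and not a bound site.

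Mt1 stood at 16940, 16000 and 19360 CPM in the controls and at 527, 686, 299 and 188 CPM in DREADD Sham. It fell by 5.36 on the log2 scale (SE 0.78, edgeR adjusted p = 0.0133). Mt2 stood at 3423, 3089 and 4115 CPM against 121, 131, 64.3 and 42.8 CPM and fell by 5.30 (SE 0.82, adjusted p = 0.0181). All 4 DREADD Sham libraries lay far under the lowest control for both genes. Mt3, the brain form, stood at 4738, 4502 and 5778 CPM against 170, 259, 22.6 and 21.9 CPM, with a log2 difference of -5.40 (SE 1.13) and an adjusted p of 0.0601 that missed the threshold. Without DREADD Sham 2 its difference was -6.13. Mt1 and Mt2 are close in sequence, and how reads with several matches were counted is not given, so the split between them is uncertain.

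Individual enzyme genes are given next. Gstm1, a glutathione transferase on chromosome 3 (chr3:108012255-108017973, GENCODE M21 on GRCm38, minus strand), stood at 8919, 8367 and 9495 CPM in the controls and 248, 707, 420 and 272 CPM in DREADD Sham, and fell by 4.44 (SE 0.58, adjusted p = 0.0061). Its neighbour Gstm5 stood at 12910, 12340 and 14880 CPM against 559, 648, 94.2 and 35.6 CPM and fell by 5.32 (SE 0.96, adjusted p = 0.0389). The mu-class genes are near copies of one another, so their separate values are uncertain, and 4933431E20Rik, which also fell, overlaps Gstm5 on the opposite strand. Mgst1, a membrane-bound glutathione transferase, fell by 4.54 (SE 0.89, adjusted p = 0.0494), and Prdx2, a peroxiredoxin that removes hydrogen peroxide, fell by 2.61 (SE 0.47, adjusted p = 0.0389). Rida, which clears reactive enamines, stood at 2546, 2584 and 2844 CPM in the controls and fell by 4.55 (SE 0.83, adjusted p = 0.0403).

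The next falls are given together because their products are secreted or act in the secretory pathway, an order of description and not a list that was tested. Cst3, which encodes the secreted cysteine protease inhibitor cystatin C (chr2:148871722-148875692, minus strand), had the most counts of the fallen genes. It stood at 85350, 88490 and 105100 CPM in the controls and 6483, 3219, 4065 and 6609 CPM in DREADD Sham, and fell by 4.19 (SE 0.53, adjusted p = 0.0061). Cpe, the carboxypeptidase that trims peptide precursors in secretory granules (chr8:64592542-64693054, minus strand), stood at 17440, 17200 and 18760 CPM against 552, 874, 804 and 352 CPM and fell by 4.79 (SE 0.65, adjusted p = 0.00675). Scg3, a granin that helps to sort cargo into dense-core granules (chr9:75643189-75684056, minus strand), stood at 2982, 2958 and 2953 CPM against 173, 120, 126 and 72.4 CPM and fell by 4.59 (SE 0.55, adjusted p = 0.0061). The 3 controls were nearly equal for Scg3, and the highest DREADD Sham library was far under all of them.

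Clu, the extracellular chaperone clusterin, stood at 17290, 18080 and 16580 CPM against 1590, 1028, 380 and 257 CPM and fell by 4.41 (SE 0.81, adjusted p = 0.0403). Pla2g7, a secreted enzyme that degrades platelet-activating factor, stood at 2660, 3212 and 2526 CPM against 257, 158, 65.1 and 20.0 CPM and fell by 4.49 (SE 0.75, adjusted p = 0.0265). Without DREADD Sham 1 its log2 fold change was -5.11. Lcat, which esterifies cholesterol on lipoproteins, fell by 4.37 (SE 0.66, adjusted p = 0.0166). Sparcl1, a matrix-associated glycoprotein of astrocytes, fell by 3.76 (SE 0.65, adjusted p = 0.0296), and the growth factor midkine, Mdk, stood at 404, 385 and 370 CPM against 37.2, 35.5, 48.3 and 31.0 CPM and fell by 3.35 (SE 0.45, adjusted p = 0.00661). The cytokine gene Il18 and Scrg1 also fell.

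Individual genes for lipid binding, acyl-CoA metabolism and transport follow, again without a list or a test of the grouping. Fabp7, a lipid carrier found in radial glia and astrocytes (chr10:57784881-57788450, plus strand), stood at 2001, 2069 and 2479 CPM in the controls and 98.9, 88.7, 100.0 and 144 CPM in DREADD Sham, and fell by 4.34 (SE 0.56, adjusted p = 0.0061). Dbi, which binds acyl-CoA esters and yields a ligand of the benzodiazepine site of GABA-A receptors, fell by 4.24 (SE 0.81, adjusted p = 0.0451). The acyl-CoA synthetases Acsl6 and Acsbg1 and the thioesterase Acot13 passed the test as lower too, with log2 fold changes of -3.50, -3.39 and -2.75. Slc15a2, the peptide transporter PEPT2, gave the largest fall: it stood at 604, 589 and 512 CPM in the controls and 18.1, 16.3, 9.05 and 7.18 CPM in DREADD Sham and fell by 5.49 (SE 1.05, adjusted p = 0.0451). The bicarbonate cotransporter Slc4a4 fell by 3.54 (SE 0.67, adjusted p = 0.0451). Glul, the glutamine synthetase that takes up ammonia and glutamate in astrocytes, stood at 972, 1063 and 1048 CPM against 207, 178, 205 and 143 CPM and fell by 2.49 (SE 0.48, adjusted p = 0.0451). Cldn10, a claudin, stood at 3659, 3357 and 3743 CPM in the controls and fell by 5.18 (SE 0.99, adjusted p = 0.0451).

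The remaining falls were of mixed kind. Pantr1, a long noncoding RNA on chromosome 1 (chr1:42590782-42694842, minus strand), stood at 2011, 1722 and 2224 CPM against 57.1, 61.7, 124 and 86.1 CPM and fell by 4.59 (SE 0.59, adjusted p = 0.0061). Id2, which blocks basic helix-loop-helix factors, stood at 3571, 3187 and 3049 CPM against 220, 240, 497 and 507 CPM and fell by 3.16 (SE 0.51, adjusted p = 0.0212). The calcium-binding S100 genes S100a1, S100a6 and S100a13 fell by 3.37, 4.12 and 3.38. Among genes of mitochondrial proteins, the complex I subunit Ndufc2 and the ribosomal protein Mrpl27 fell by 3.33 and 2.59. Mamdc4 and Phpt1 overlap on the same strand and had nearly the same counts, 36399 and 36593 over the 7 libraries, so they are not independent calls. Hopxos overlaps Hopx on the opposite strand. So do Prdx2 and Junb (154012 and 83393 counts over the 7 libraries), Ost4 and Agbl5 (56654 and 52951), and Tmem176a and Tmem176b (20521 and 38271). Pla2g7 and Acsl6 are among other fallen genes with such an overlap. Without a stated strand setting the reads of such pairs cannot be told apart. Tspan7, Tmem47, Tmem176a, Dhrs7, Aamdc, Ost4, Fmc1, Sf3b6 and 1810037I17Rik complete the 46 and fell by 2.43 to 3.79.

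Of the 10 genes that rose, 3 are on the list of oligodendrocyte precursor markers and are given first. Neu4, a sialidase (chr1:94020451-94028334, plus strand), had no count in any control and stood at 69.7, 155, 180 and 192 CPM in DREADD Sham. Set against a floor of 3 counts over the control group, it was at least 2685-fold higher (edgeR adjusted p = 0.0181). Cspg4, the NG2 proteoglycan of oligodendrocyte precursors and pericytes, likewise had no control count, stood at 11.6, 19.7, 93.9 and 82.3 CPM, and was at least 812-fold higher (adjusted p = 0.0451). Pdgfra, the platelet-derived growth factor receptor of these precursors (chr5:75152292-75198215, plus strand), stood at 0.398, 0.0494 and 0.576 CPM in the controls and 146, 74.2, 398 and 298 CPM in DREADD Sham, and rose by 9.37 on the log2 scale (SE 1.62, adjusted p = 0.0296). Without CAG-GFP Sham 3 the value was 9.97. For these 3 genes each DREADD Sham library lay above every control, and replicates 3 and 4 were the higher ones.

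Dusp26, a dual-specificity phosphatase found in neurons, had 1 count over the 3 controls and stood at 16.6, 124, 228 and 153 CPM in DREADD Sham. The ratio was 6361, with a 95% exact counting interval of 1141 to 251300 (adjusted p = 0.0133), and the fitted log2 value moved from 12.54 to 14.61 without CAG-GFP Sham 2, which held the only count. Pxdc1 had 2 control counts, both in CAG-GFP Sham 2, and stood at 13.8, 23.9, 21.2 and 50.4 CPM in DREADD Sham, a ratio of 750 (interval 207.5 to 6199, adjusted p = 0.0403). Its fitted value moved from 9.47 to 12.36 without CAG-GFP Sham 2.

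Mmp2, a gelatinase that cleaves matrix, had no control count, stood at 10.7, 4.02, 21.4 and 30.3 CPM, and was at least 288-fold higher (adjusted p = 0.0451). Ackr3, the scavenger receptor of the chemokine CXCL12, stood at 0, 0.593 and 0.157 CPM in the controls and 45.4, 8.89, 156 and 83.1 CPM in DREADD Sham, and rose by 8.17 (SE 1.51, adjusted p = 0.0432). It was 9.79 without CAG-GFP Sham 2 and 7.49 without DREADD Sham 3. Lims2, an adaptor of integrin adhesions, stood at 0, 0.346 and 0.367 CPM against 98.1, 264, 117 and 96.6 CPM and rose by 9.21 (SE 1.74, adjusted p = 0.0451). Its span overlaps Gpr17, a receptor of oligodendrocyte precursors, on the opposite strand, so its reads are uncertain.

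Ncald, the neuronal calcium sensor neurocalcin delta, was the risen gene with clear expression in the controls. It stood at 18.9, 19.2 and 26.4 CPM against 185, 264, 271 and 210 CPM and rose by 3.44 (SE 0.65, adjusted p = 0.0451). Gm28221 overlaps Ncald on the opposite strand and rose by 4.27 (SE 0.84, adjusted p = 0.0495), so the pair are not independent calls. Its value was 4.93 without CAG-GFP Sham 3.

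**Figure D4:**
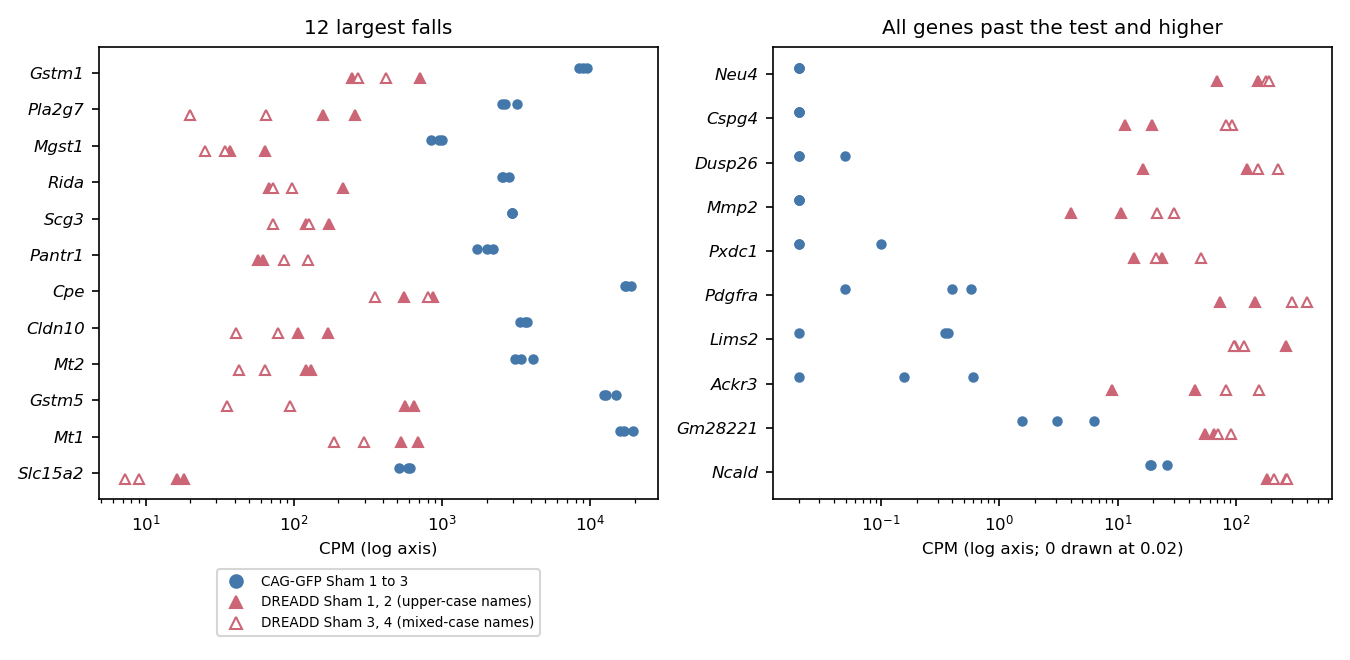
CPM in each library (x axes, log scale) for the 12 largest falls and for the 10 genes that rose, with genes as rows. Blue circles are CAG-GFP Sham, filled red triangles DREADD Sham 1 and 2 and open red triangles DREADD Sham 3 and 4; a value of 0 is drawn at 0.02. In every gene the groups are separated, as for Scg3 at 2953 to 2982 CPM against 72.4 to 173 CPM.

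The calls depended on single libraries. With CAG-GFP Sham 1, 2 or 3 left out, 7, 7 and 6 genes passed the test (0.0352%, 0.0352% and 0.0302% of genes), and with DREADD Sham 1, 2, 3 or 4 left out, 12, 10, 8 and 8 did (0.0657%, 0.0548%, 0.043% and 0.0431%). Cpe, Cst3, Fabp7, Gstm1, Pantr1 and Scg3 passed in each of the 7 fits that left 1 library out, and none of the risen genes did. Within the capitals set, which compares the 3 controls with DREADD Sham 1 and 2, 1660 of 15896 genes passed, a background of 10.4%, with 515 higher (3.24%) and 1145 lower (7.2%). Of the 56 genes, 55 passed there too, and the exception was Mmp2 with an adjusted p of 0.0617. That fit shares its libraries with the fit of all samples and is not an independent check.

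Every one of the 14 astrocyte markers was lower in all 4 DREADD Sham libraries than in any control. Of the 14, 2 fell past the gene-wide test, Acsbg1 and Slc4a4, and none rose, and the median log2 difference was -3.14 beside 0.53 over all genes. All 14 passed as lower within the capitals set. The shares over all genes are the background for the list counts here and below. Libraries did not overlap for 9.01% of all genes with DREADD Sham above and for 12.7% below. Within the set 3.24% of all genes passed as higher and 7.2% as lower. Slc1a2, the main glutamate transporter of astrocytes, stood at 8068, 8277 and 8352 CPM against 259, 559, 972 and 664 CPM, a log2 difference of -3.75 (SE 0.81, adjusted p = 0.0646). Aldoc, an astrocytic glycolytic enzyme, stood at 8201, 8112 and 8732 CPM against 496, 1471, 876 and 677 CPM (adjusted p = 0.0666). For Gja1, the gap junction protein connexin 43, the values were 2011, 2095 and 2004 CPM against 122, 79.4, 456 and 76.1 CPM, with an adjusted p of 0.224 over all libraries and 0.000388 within the capitals set.

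The radial glia-like list overlaps astrocytes in Gfap and Slc1a3. Of its 25 genes 1, Fabp7, fell and none rose, with a median of -1.88, and 13 passed as lower and 1 as higher within the capitals set. The log2 difference was positive for 7 of the 25. DREADD Sham lay above every control for 2 and under every control for 15. The members given next were lower in DREADD Sham. Hopx, a marker of quiescent stem cells, stood at 1457, 1480 and 1524 CPM against 107, 154, 139 and 144 CPM, a log2 difference of -3.45 (SE 1.005, adjusted p = 0.161; within the set -3.47, adjusted p = 0.00076). Gfap, the glial filament protein, stood at 709, 589 and 699 CPM against 204, 144, 221 and 155 CPM (adjusted p = 0.260 and, within the set, 0.0038). Thrsp stood at 1415, 1240 and 1398 CPM against 55.5, 64.8, 836 and 169 CPM, with DREADD Sham 3 far above the rest of its group.

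All 13 oligodendrocyte markers were higher in every DREADD Sham library than in any control, and all 13 passed as higher within the capitals set. None passed over all libraries in edgeR's test, where their median was 5.21. At an unadjusted p under 0.05 there were 12 of the 13, and DESeq2 called 12 and limma voom 1, all higher. Over all genes 3474 of 18676 had an unadjusted p under 0.05. DESeq2 called 10.7% of all genes higher and 3.49% lower, and limma voom 0.637% and 3.96%. These shares are the background for such counts in the lists below. Mbp, myelin basic protein, stood at 60.8, 47.7 and 59.5 CPM in the controls and 6722, 4645, 19820 and 12940 CPM in DREADD Sham, a log2 difference of 7.62 (SE 1.65, adjusted p = 0.0661). Mag, the adhesion protein of the inner myelin layer, stood at 6.12, 11.8 and 5.71 CPM against 697, 523, 166 and 75.1 CPM. The whole list was detected in both groups, with no gene without counts.

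Of 8 precursor markers, 3 rose (Neu4, Cspg4 and Pdgfra) and none fell, with a median of 7.31, and 5 passed as higher within the capitals set. Their sums were 29.2, 25.2 and 45.6 CPM in the controls and 427, 656, 990 and 951 CPM in DREADD Sham, and 2 of the markers had no control count. Sox10, the transcription factor of the oligodendrocyte lineage, stood at 0.0497, 0 and 0.210 CPM against 27.7, 77.9, 118 and 113 CPM, with an adjusted p of 0.0701. Olig1, another such factor, stood at 23.7, 24.3 and 31.4 CPM against 101, 201, 175 and 203 CPM (log2 difference 2.68, SE 1.28, adjusted p = 0.275; within the set adjusted p = 0.00768). Neu4, Cspg4 and Pdgfra are themselves members of the precursor list, so its sums are not separate from the rises of these genes. The part of other sorted cell types in those rises was not tested.

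Markers of further cell types varied from library to library within DREADD Sham. The 15 microglia markers summed to 5424 to 5697 CPM in the controls and to 7420, 815, 5688 and 13100 CPM in DREADD Sham, and none passed edgeR's test over all libraries or within the capitals set (unadjusted p under 0.05 for 1 higher and 2 lower; DESeq2 called 1 higher, limma voom 0). Endothelial markers summed to 16.6 to 43.1 CPM against 105, 32.5, 917 and 750 CPM, with 7 of 14 without a control count. All 13 tested had a positive log2 difference, beside 11402 of 18676 over all genes, and none passed edgeR's test. A gene without a control count could not come out negative, so such signs here and below are partly built in. At an unadjusted p under 0.05 there were 11 higher, and DESeq2 called 10 higher and limma voom 0. Cldn5, the tight-junction claudin of brain endothelium, had no count in DREADD Sham 1 and 2 and stood at 101 and 108 CPM in replicates 3 and 4. Pericyte and smooth muscle markers summed to 24.9 to 27.7 CPM against 366, 34.8, 1236 and 1619 CPM, and 1 of 10, Cspg4, rose. All 10 had a positive log2 difference, with 8 higher at an unadjusted p under 0.05, 7 by DESeq2 and 1 by limma voom. Of these 10, 3 had no control count. Rgs5, a pericyte gene, stood at 9.003, 6.32 and 11.5 CPM in the controls and at 9.51, 4.32, 329 and 564 CPM in DREADD Sham, so only replicates 3 and 4 were high.

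Ependymal and choroid plexus markers summed to 2166 to 2835 CPM in the controls and to 13710, 13580, 306 and 227 CPM in DREADD Sham. Nearly all of it was Ttr, the thyroxine carrier of the choroid plexus, at 2133, 2109 and 2751 CPM against 13410, 13280, 302 and 227 CPM. Ttr was thus higher than the controls in replicates 1 and 2 and lower in replicates 3 and 4, and passed as higher within the capitals set (log2 difference 2.55, SE 0.18, adjusted p = 0.000567). Blood cell markers summed to 12.04 to 36.8 CPM in the controls and to 6966, 4.67, 2534 and 1619 CPM in DREADD Sham. Among them the haemoglobin gene Hbb-bs stood at 0, 1.48 and 2.99 CPM in the controls and 2019, 1.23, 1970 and 1237 CPM in DREADD Sham, so replicate 2 alone matched the controls. Of 9 blood markers 5 had no control count. All 6 tested were positive, beside 11402 of 18676 over all genes, and none passed edgeR's test. At an unadjusted p under 0.05 there were 3 higher, and DESeq2 called 3 and limma voom 0. Interneuron markers summed to 8.29 to 15.3 CPM against 43.3, 55.9, 542 and 308 CPM, and Dlx6os1, a transcript of interneuron precursors, was at 412 and 147 CPM in replicates 3 and 4. Of 10 interneuron markers 5 had no control count. Among the 7 tested, 5 were positive and none passed edgeR's test. At an unadjusted p under 0.05 there were 4 higher, and DESeq2 called 4 and limma voom 0. Markers of CA pyramidal neurons summed to 292 to 311 CPM in the controls and 205 to 217 CPM in DREADD Sham.

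Genes of neuroblasts and immature neurons were higher in DREADD Sham in sum, at 2366, 2771, 4418 and 3871 CPM against 1071, 1153 and 1051 CPM. Over all libraries none of the 23 tested genes passed the edgeR test, with a median of 1.86 beside 0.53 over all genes. Of these, 11 had DREADD Sham above every control, beside 9.01% of all genes. Of 22 tested within the capitals set, 7 passed as higher, beside 3.24% of all genes. All libraries together gave 11 higher genes at an unadjusted p under 0.05, while DESeq2 called 10 and limma voom 2, all higher. Neurod1, the transcription factor of granule neuroblasts, stood at 0.796, 0.938 and 0.576 CPM against 63.1, 67.7, 216 and 284 CPM, a log2 difference of 7.67 (SE 1.86, adjusted p = 0.102; within the set 6.43, adjusted p = 0.00116). Map1b, a microtubule protein of growing axons, stood at 98.4, 141 and 59.5 CPM against 599, 677, 541 and 496 CPM (adjusted p = 0.123 and, within the set, 0.00516). Stmn1, a microtubule-destabilising protein, stood at 375, 293 and 338 CPM against 655, 739, 744 and 973 CPM (adjusted p = 0.458 and, within the set, 0.018). Sox11 stood at 15.5, 4.79 and 12.7 CPM against 37.9, 58.1, 429 and 234 CPM.

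The mature granule cell list differed in sum between the 2 kinds of DREADD Sham library. Its sums were 1093, 1139 and 959 CPM in the controls, 1968 and 2059 CPM in DREADD Sham 1 and 2, and 609 and 613 CPM in DREADD Sham 3 and 4. Of 27 genes 1, Slc4a4, fell, none rose, and the median was 2.07, while within the capitals set 9 passed as higher and 1 as lower. A positive log2 difference was found in 25 of the 27, of which 3 had no control count. DREADD Sham lay above every control for 7 genes and under every control for 1, beside 9.01% and 12.7% of all genes. At an unadjusted p under 0.05 there were 6 higher and 1 lower. DESeq2 called 6 and 1 and limma voom 2 and 1. Slc4a4 is an astrocyte marker as well. Calb1, the calcium buffer calbindin of mature granule cells, stood at 67.8, 51.0 and 64.5 CPM in the controls and 208, 477, 7.18 and 0 CPM in DREADD Sham, high in replicates 1 and 2 and low in 3 and 4. Its log2 difference was 1.502 (SE 1.54, adjusted p = 0.684) over all libraries, 0.23 without DREADD Sham 2, -1.37 with limma voom, and 2.53 (adjusted p = 0.00790) within the set.

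**Figure D5:**
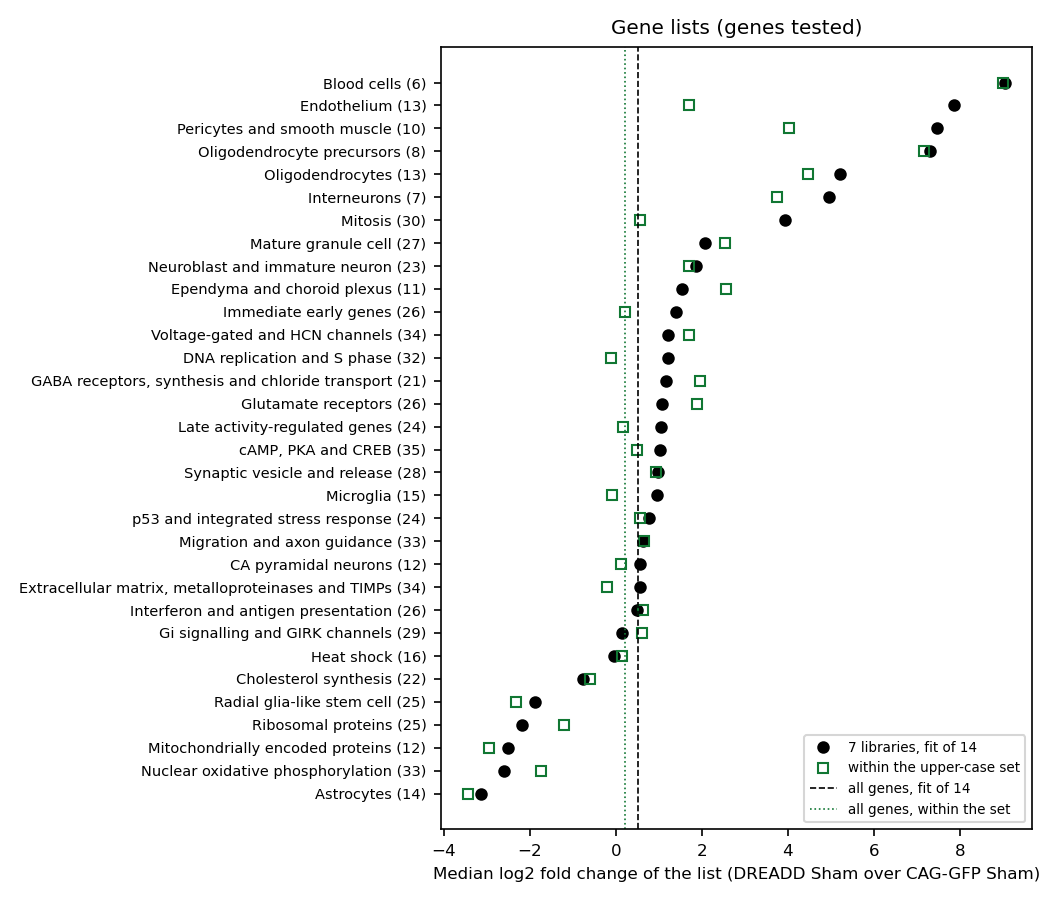
Median fitted log2 fold change of each gene list (x axis; y axis, list with the number of genes tested) in the fit of all 14 libraries (black circles) and within the capitals set (green squares). Vertical lines are the medians of all genes in the 2 fits, 0.53 (dashed) and 0.21 (dotted). Astrocyte, oxidative phosphorylation, mitochondrial, ribosomal protein and radial glia-like lists lie to the left, and the Gi signalling list lies near the lines. Medians of lists with genes at 0 in 1 group rest on fitted values.

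The receptor itself could not be read from these counts, since the mouse muscarinic genes do not check a receptor made from the human sequence. Chrm4, whose human form hM4Di derives from, had no count in any of the 7 libraries. Chrm1, the M1 receptor of excitatory neurons, stood at 10.7, 9.23 and 1.99 CPM in the controls and 56.7, 21.3, 0 and 0.0871 CPM in DREADD Sham (adjusted p = 0.777). Chrm2 had counts in DREADD Sham 4 alone, at 0.914 CPM, and Chrm3 and Chrm5 stayed at or under 1.68 CPM in each library.

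Of 29 tested genes for Gi signalling and GIRK channels, none passed the edgeR test over all libraries. A positive log2 difference was found in 15 of the 29, beside 11402 of 18676 over all genes. The median was 0.15 beside 0.53 over all genes. At an unadjusted p under 0.05 there were 4 higher and 1 lower, and DESeq2 called 3 higher and limma voom 0. Over all genes 3474 of 18676 reached that unadjusted p and DESeq2 called 10.7% higher, so these counts are near the background. Within the capitals set Gnb2 passed as higher and Gnb1 as lower, both G protein beta subunits. Gnb2 stood at 48.9, 53.5 and 51.9 CPM against 102, 209, 96.1 and 100.0 CPM (log2 difference 1.30, SE 0.50, adjusted p = 0.227; within the set 1.64, adjusted p = 0.0329). Gnb1 stood at 123, 105 and 89.8 CPM against 30.4, 36.6, 51.7 and 54.5 CPM (log2 difference -1.29, SE 0.52, adjusted p = 0.237; within the set -1.63, adjusted p = 0.0218). The libraries of the 2 groups did not overlap for either gene. Gnai2, a Gi alpha subunit, stood at 72.7, 74.4 and 70.4 CPM against 49.8, 109, 76.3 and 87.3 CPM, and its groups overlapped. Kcnj3, the GIRK1 channel subunit, stood at 12.8, 25.7 and 18.0 CPM against 33.5, 26.4, 0 and 0 CPM, with no count in replicates 3 and 4.

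Downstream of Gi, none of 35 genes of cAMP, protein kinase A and CREB passed the edgeR test over all libraries, with a median of 1.02, and 2 passed as higher within the capitals set. An unadjusted p under 0.05 was reached by 1 gene, and DESeq2 called 2 higher and limma voom 1 lower. One of the genes within the set was Pkia, an inhibitor of protein kinase A, at 50.04, 41.4 and 16.7 CPM against 124, 151, 494 and 437 CPM (log2 difference 3.06, SE 0.85, adjusted p = 0.145; within the set 1.96, adjusted p = 0.0453). The other was Prkar1b, a regulatory subunit of the kinase. Prkar1a, another regulatory subunit, stood at 332, 312 and 320 CPM against 442, 438, 557 and 395 CPM, a difference of 0.51 (SE 0.48, adjusted p = 0.648), close to the median of all genes.

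Immediate early genes, which neurons switch on within minutes of firing, showed no edgeR call over all libraries among 26 tested, with 7 higher at an unadjusted p under 0.05, 5 higher by DESeq2 and 2 higher by limma voom. Their median was 1.39, and their sums were 2817, 1894 and 1999 CPM in the controls, 1864 and 2346 CPM in DREADD Sham 1 and 2, and 5230 and 5187 CPM in DREADD Sham 3 and 4. Fos stood at 1387, 824 and 996 CPM in the controls and 746, 920, 1595 and 1750 CPM in DREADD Sham, with overlapping groups. Its log2 difference was 0.23 (SE 0.68, adjusted p = 0.923), -0.32 within the capitals set and -0.57 with the name style as a covariate. Arc, which regulates AMPA receptors at synapses, stood at 0, 0 and 0.262 CPM against 24.8, 12.7, 51.1 and 25.9 CPM (adjusted p = 0.148; within the set 0.0459). Npas4 had no control count and stood at 0.713, 13.9, 20.4 and 44.6 CPM in DREADD Sham (adjusted p = 0.211). Btg2, an antiproliferative early gene, stood at 456, 399 and 341 CPM against 65.9, 162, 270 and 343 CPM (adjusted p = 0.525; within the set 0.0427, lower).

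Late activity-regulated genes likewise gave no edgeR call among 24, with a median of 1.06. At an unadjusted p under 0.05 there were 1 higher and 1 lower, as with DESeq2, and limma voom called 1 lower. Over all genes 3474 of 18676 reached that unadjusted p, and DESeq2 called 10.7% higher and 3.49% lower. Gadd45g, a stress and DNA demethylation factor, stood at 1071, 716 and 1030 CPM against 117, 141, 220 and 181 CPM, a log2 difference of -2.51 (SE 0.67, adjusted p = 0.129; within the set -2.83, adjusted p = 0.00176). All 4 DREADD Sham libraries were under each control. Penk, the enkephalin precursor, stood at 3.53, 3.16 and 0.629 CPM against 40.5, 602, 0 and 0 CPM, high in DREADD Sham 2. Together 3 of the late genes passed as higher and 1 as lower within the set.

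Genes for neuronal excitability gave no edgeR call over all libraries. Medians were 1.21 for 34 voltage-gated and HCN channel genes, 1.07 for 26 glutamate receptor genes, 1.16 for 21 genes of GABA receptors, synthesis and chloride transport, and 0.97 for 28 synaptic vesicle genes. Within the capitals set the counts passing as higher and lower were 1 and 0, 1 and 2, 6 and 2, and 7 and 1 in the same order. At an unadjusted p under 0.05 over all libraries they were 2 and 1, 1 and 1, 5 and 2, and 3 and 0. Over all genes 3474 of 18676 reached that unadjusted p, and DESeq2 called 10.7% higher and 3.49% lower. DESeq2 called 0 and 1, 1 and 0, 5 and 0, and 1 and 0, and limma voom called 1 lower gene in each of the first 3 lists and 0 in the last. Gabrg1, a GABA-A subunit enriched in glia, stood at 230, 171 and 207 CPM against 7.20, 4.45, 50.1 and 50.5 CPM (log2 difference -2.85, SE 1.33, adjusted p = 0.268; within the set -5.09, adjusted p = 0.00072). Slc12a2, the chloride importer NKCC1, stood at 8.56, 16.2 and 26.4 CPM against 109, 98.7, 251 and 113 CPM (log2 difference 3.07, SE 0.76, adjusted p = 0.108; within the set 2.64, adjusted p = 0.0176). Grm3, a glutamate receptor common in astrocytes, stood at 231, 299 and 232 CPM against 24.5, 29.1, 83.9 and 57.8 CPM (adjusted p = 0.259; within the set 0.00145, lower).

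Some synaptic vesicle genes were high in DREADD Sham 1 and 2 and at or near the control level in 3 and 4. Syp, the vesicle protein synaptophysin, stood at 56.6, 69.9 and 49.6 CPM in the controls and 562, 158, 60.2 and 55.8 CPM in DREADD Sham. Slc17a7, the vesicular glutamate transporter VGLUT1, stood at 3.73, 2.86 and 4.51 CPM against 101, 36.2, 1.81 and 4.53 CPM. Both passed as higher within the capitals set (adjusted p of 0.0169 and 0.00581) and not over all libraries (0.301 and 0.265). Whether this follows the kind of library or the cells in it cannot be told apart.

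The series title names Rrm2 and Timp3. Rrm2, the ribonucleotide reductase subunit that limits deoxynucleotide supply in S phase, stood at 1.99, 4.64 and 6.66 CPM in the controls and 10.1, 3.90, 106 and 390 CPM in DREADD Sham. The groups overlapped, and only replicates 3 and 4 were high. Its log2 difference was 4.84 (SE 2.08, adjusted p = 0.251) over all libraries and 0.68 (adjusted p = 0.805) within the capitals set, and it was 3.17 without DREADD Sham 4. Timp3, an inhibitor of metalloproteinases bound to the matrix, stood at 179, 173 and 177 CPM against 51.0, 56.1, 270 and 86.0 CPM. Its log2 difference was -0.61 (SE 0.76, adjusted p = 0.758), -1.69 (SE 0.25, adjusted p = 0.00737) within the set, 0.12 with library totals and -1.45 without DREADD Sham 3. DREADD Sham 3 lay above the controls and the other 3 libraries of the group under them.

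Proliferation genes gave no edgeR call. Over all libraries none of 32 genes of DNA replication and S phase passed (median 1.20). Nor did any of 30 mitosis genes (median 3.94 as fitted, 3.83 with genes lacking counts in 1 group set at the floor). Within the capitals set only 27 of the S phase and 13 of the mitosis genes were tested, and none passed. At an unadjusted p under 0.05, 6 S phase genes were higher, and 7 mitosis genes were higher and 1 lower. Over all genes 3474 of 18676 reached that unadjusted p, and DESeq2 called 10.7% higher and 3.49% lower. DESeq2 called 6 S phase genes higher, and 9 mitosis genes higher and 1 lower, while limma voom called 1 S phase gene higher and 0 mitosis genes. The S phase sums were 473, 434 and 414 CPM in the controls and 412, 457, 537 and 1390 CPM in DREADD Sham. Mki67, the proliferation antigen, had no control count and stood at 0.0246, 1.69, 0 and 49.0 CPM in DREADD Sham, and Top2a, the mitotic topoisomerase, at 2.56, 0, 1.52 and 45.9 CPM. DREADD Sham 4 alone was high for both.

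Among 33 genes of migration and axon guidance 1, Ackr3, rose, and the median was 0.64. Within the capitals set 2 of 32 passed as higher and 0 as lower. Among 34 genes of the extracellular matrix, its proteases and their inhibitors, Mmp2 rose and Sparcl1 fell, with a median of 0.55, and within the capitals set 2 passed as higher and 8 as lower. Hapln1, the link protein of perineuronal nets, stood at 145, 125 and 160 CPM against 11.3, 5.19, 0.409 and 9.66 CPM (log2 difference -4.43, SE 1.37, adjusted p = 0.185; within the set -4.10, adjusted p = 0.0026). Brevican and neurocan, the lecticans that Hapln1 ties to hyaluronan, were lower in all 4 libraries too. Bcan stood at 633, 562 and 765 CPM against 109, 98.7, 147 and 90.9 CPM (adjusted p = 0.109; within the set 0.00141), and Ncan at 203, 181 and 220 CPM against 29.6, 25.7, 29.1 and 19.9 CPM (adjusted p = 0.155; within the set 0.00164).

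The 2 lists of energy metabolism had no member past the edgeR test over all libraries. Ndufc2, a complex I subunit outside these lists, fell as given above. Of 33 nuclear genes of oxidative phosphorylation 32 had a negative log2 difference, 25 had DREADD Sham under every control, and the median was -2.60. All 12 tested mitochondrially encoded protein genes were negative, 11 without overlap, with a median of -2.52. Within the capitals set 20 of the former and 7 of the latter passed as lower and none as higher. Of all genes 7.2% passed as lower within the set, and 12.7% had DREADD Sham under every control. The log2 difference was positive for 11402 of all 18676 genes. Over all libraries 19 and 7 were lower at an unadjusted p under 0.05, DESeq2 called 12 and 3, and limma voom 20 and 5. The mitochondrial gene mt-Co1, a subunit of cytochrome c oxidase, stood at 39160, 39770 and 38390 CPM against 3104, 2894, 6989 and 5426 CPM (log2 difference -3.09, SE 0.80, adjusted p = 0.123; within the set -3.67, adjusted p = 0.000322). Cox4i1, a nuclear subunit of the same complex, stood at 4126, 3818 and 4956 CPM against 845, 890, 234 and 297 CPM (adjusted p = 0.125; within the set 0.00117).

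Ribosomal protein genes had a median of -2.19. All 25 were negative, while 11402 of all 18676 genes were positive. Within the capitals set 18 passed as lower. There was no edgeR call over all libraries (7 lower at an unadjusted p under 0.05, 2 by DESeq2 and 4 by limma voom). Rpl19, a protein of the large ribosomal subunit, stood at 702, 799 and 806 CPM against 255, 271, 1.28 and 1.26 CPM, so most of the drop over all libraries lay in replicates 3 and 4. In cholesterol synthesis 4 of 22 passed as lower within the set and 0 by edgeR over all libraries (4 at an unadjusted p under 0.05, 3 by DESeq2 and 3 by limma voom), with a median of -0.77. Msmo1, a sterol oxidase, stood at 1176, 1402 and 1060 CPM against 335, 396, 397 and 413 CPM (adjusted p = 0.122; within the set 0.00502).

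Stress lists gave no call over all libraries in edgeR's test. The median was -0.04 for 16 heat shock genes, 0.78 for 24 genes of p53 and the integrated stress response, and 0.50 for 26 genes of interferon and antigen presentation. At an unadjusted p under 0.05 the higher and lower genes were 2 and 1, 4 and 2, and 0 and 3. DESeq2 called 2 and 1, 3 and 1, and 0 and 0, and limma voom 0 and 1, 1 and 2, and 0 and 2. Within the capitals set 3 and 1, 0 and 2, and 0 and 2 passed as higher and lower. Over all genes 3.24% passed as higher and 7.2% as lower there, and 3474 of 18676 had an unadjusted p under 0.05 over all libraries. Hspa8, the constitutive HSC70 chaperone, stood at 2460, 2206 and 2420 CPM in the controls and 2647, 2376, 69.1 and 98.7 CPM in DREADD Sham. Replicates 1 and 2 lay close to the controls, and replicates 3 and 4 were far under them. Its log2 difference was -0.86 over all libraries, 0.12 within the capitals set and 0.07 with the name style as a covariate.

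The seizure libraries give the levels of the same genes beside the sham groups. Scg3 had a mean of 2964 ± 15.6 CPM (SD, n = 3) in CAG-GFP Sham, 123 ± 41.1 (n = 4) in DREADD Sham, 133 ± 73.6 (n = 4) in CAG-GFP Pilo and 64.5 ± 20.8 (n = 3) in DREADD Pilo. Mt1 had means of 17430 ± 1735, 425 ± 224, 608 ± 399 and 436 ± 292 CPM in the same order, and Cst3 92990 ± 10630, 5094 ± 1713, 11430 ± 4502 and 11810 ± 4252 CPM. Pdgfra had means of 0.341 ± 0.268, 229 ± 146, 126 ± 142 and 142 ± 87.5 CPM. For these 4 genes the mean of CAG-GFP Sham stood apart from the other 3 means. These values share the CAG-GFP Sham libraries with the comparison above.

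DREADD Sham and CAG-GFP Pilo were compared directly in the same fit, and no gene passed the edgeR test, with 723 at an unadjusted p under 0.05. Of the 56 genes, 4 had an unadjusted p under 0.05 there. DREADD Pilo against DREADD Sham gave no call either, with 967 genes at an unadjusted p under 0.05, 9 of the 56 among them. The interaction, which asks whether the DREADD difference in seizure animals departs from that in sham animals, gave no call (2191 at an unadjusted p under 0.05). All 56 genes had an interaction term opposite in sign to the sham difference, as for Scg3 at 3.55 (SE 0.71, adjusted p = 0.219) and Pdgfra at -9.20 (SE 1.84, adjusted p = 0.219), and the lowest adjusted p among the 56 was 0.194. Since the interaction contains the sham difference with the opposite sign, that direction is partly built in.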

How the data were processed

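Gene-level counts came from 7 libraries of 800 to 1000 sorted GFP-positive cells each, fitted together with the other libraries of the series, 14 in all. The authors deposited unnormalised whole-number counts in 1 table. Bowtie2, featureCounts, Subread, R 4.1.1, edgeR and the build hg38 are named, per the submitters' processing notes, without roles. The identifiers are mouse Ensembl genes, which hg38 does not describe. Strand setting and handling of multiply matching reads are not given. GENCODE M21 (GRCm38) supplied symbols and positions for 42462 of 43346 identifiers (98%).

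CPM were computed from TMM-adjusted library sizes. The test was edgeR 4.0.16 under R 4.3.3 with TMM, filterByExpr, a quasi-likelihood F-test with 1 coefficient per group, and Benjamini-Hochberg adjustment over 18676 genes at 0.05. The code was tested on simulated data. Alternatives were DESeq2 1.42.0, limma 3.58.1 voom, RLE factors, other filters and gene sets, a name-style covariate, a replicate block, summed controls and fits without each library. The name-style covariate was not a split by letter case alone. It placed CAG-GFP Pilo 1 and 2, whose names are in capitals, with the mixed-case libraries. Pseudogenes held 6.06% and 7.06% of the counts of these 2 libraries. Libraries of a group differed by more than sampling noise (chi-square per degree of freedom 90.4 to 788). Folds against a group at 0 used a floor of 3 counts over that group. Bounds and 95% intervals cover counting error alone, as reads carried no molecular identifiers.

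Named genes were drawn from Rrm2, Timp3, the 12 largest rises and 12 largest falls with at least 5 CPM in the higher group and no overlap, up to 4 called and the 2 highest members of each of 33 lists, and the muscarinic receptors. Other called genes and list members were named after their values were seen. The comparison, lists and markers were chosen with earlier results of these data known, so lists are described by counts and medians without a test. Pde2a and Lhfpl3 matched no symbol. List counts within the capitals set cover only members tested both there and in the fit of all libraries. For some lists these were fewer, as for mitosis, with 13 of 30 genes.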

Additional observations from a re-analysis of the deposited data

Results flagged for a closer look

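In the 4 DREADD Sham libraries, 1 value stood far from the other 3 for 12 of the 125 measures checked (named genes and marker sums). Chance flags about 1 in 20 groups of independent, evenly spread values, a rate that need not hold here: the measures share libraries, CPM are skewed, and for Chrm2 and Chrm5 the other 3 libraries were at 0. DREADD Sham 3 was the outlying library for Timp3 (270.0 CPM), Slc12a2 (251 CPM), Thrsp (836 CPM) and Gja1 (456 CPM), each above the rest of its group. DREADD Sham 2 was highest for Lims2 (264 CPM), Gnb2 (209 CPM), Sf3b6 (163 CPM) and Penk (602 CPM). DREADD Sham 4 was highest for Top2a (45.9 CPM), Mki67 (49.0 CPM) and Chrm2 (0.914 CPM). DREADD Sham 1 was highest for Chrm5 (0.713 CPM). Lims2 and Sf3b6 are the only 2 of these that passed the test, and both kept groups that did not overlap.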

How the results depend on the processing

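The 56 calls (10 higher, 46 lower) became 647 (236 and 411) with the 7 libraries alone, 2655 (2003 and 652) with DESeq2, 858 (119 and 739) with limma voom, 101 (23 and 78) without pseudogenes, 146 (22 and 124) with the name style as a covariate and 1660 (515 and 1145) within the capitals set. RLE factors gave 38 (8 and 30). Library totals gave 13 (5 and 8), and leaving out mitochondrial genes gave 86 (11 and 75), both added after seeing the data. Leaving out 1 library gave 6 to 12 calls, 0 to 2 higher and 6 to 10 lower. With the controls summed to 1 sample there were 0 calls in either direction and 722 genes at an unadjusted p under 0.05. A replicate block also gave 0 (0 higher, 0 lower; 1728 unadjusted). Same-numbered libraries had deviations correlated at -0.0177, 0.0106 and 0.0101, and other pairs at -0.0398 to 0.0376. The DREADD Sham deviations also carry the difference between the 2 kinds of library. These values therefore cannot tell whether same-numbered libraries share more than a number. No low-count filter gave 62 calls and 1 CPM in at least 3 libraries 65. The cause of these changes was not tested.

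None of the 56 genes reversed. Among other named genes, the log2 value turned to 0.12 for Timp3 and 0.50 for Kcnj3 with library totals, to -0.57 for Fos, 0.0704 for Hspa8 and -0.34 for Cldn5 with the style covariate, and to -1.80 for Chrm1 and -1.37 for Calb1 with voom. Within the capitals set Fos was -0.32, Hspa8 0.12, Rgs5 -0.35 and Kcnj3 0.70. Leaving out 1 library gave -0.0358 to 1.83 for Chrm1, negative without DREADD Sham 1. It gave -0.0286 to 0.324 for Gnai2, negative without DREADD Sham 2, and -1.09 to 0.0842 for Kcnj3, positive without DREADD Sham 3 or 4. Of 57 named genes that did not pass the test, 28 moved by over 1.5-fold when 1 library was left out. Depth limits genes under about 1 CPM, such as Chrm2, Chrm3 and Chrm5.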
